A study of Danio rerio with 40 samples.

Results

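The 10 genes described here encode parts of the machinery that displays peptides on the cell surface: the MHC class I heavy chains mhc1uba and mhc1uka, their light chain b2m, the class II invariant chains cd74a and cd74b, the proteasome subunits psmb8a, psmb9a and psmb13a, and the peptide transporter genes tap1 and tap2a. They were taken by symbol from the authors' annotated gene table and joined by Ensembl ID to the counts of each fish, and all 10 were found among the 32520 genes listed. The study fed adult zebrafish (Danio rerio, labelled WT, approximately 1 year old) a diet with 60% GA (gum Arabic, a dietary fibre from Acacia) or the Control diet for 2 weeks and sequenced poly-A selected RNA of each brain. The labels give 10 female and 10 male fish on 60% GA, and 10 female and 10 male fish on the Control diet. The count tables are separate for females and males but the column names do not show the diet, so 20 females were compared with 20 males, each group holding both diets by the labels, and the effect of diet on these genes was not analysed here. Fish are named below as their columns are (i7, i128).

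MHC class I molecules carry peptides from inside the cell to its surface, where cytotoxic T cells read them. Proteins are cut by the proteasome, whose catalytic subunits are exchanged for interferon-inducible ones in the immunoproteasome. The peptides are pumped into the endoplasmic reticulum by the TAP transporter and loaded on a heavy chain paired with beta-2 microglobulin. Class II molecules present peptides from endosomes and are escorted there by the invariant chain. In a healthy brain both pathways are known mainly from microglia and other myeloid cells, and interferon raises them. In zebrafish the core MHC region is also known for haplotypes that differ between individuals in which class I heavy chain, proteasome and transporter genes they hold. In the RefSeq GRCz12tu annotation, used only for gene order, mhc1uka, mhc1uba, psmb13a, psmb8a, psmb9a and tap2a stood in this order within 9 gene places on 1 chromosome, whereas b2m, cd74a, cd74b and tap1 lay elsewhere.

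Estimated counts per fish summed to between 9392146 and 19131418 (median 13950594), so that 3 counts corresponded to 0.148 to 0.394 CPM, which are counts scaled to a library of 1000000 after TMM normalisation. All CPM values are not divided by gene length, so levels are compared between fish and not between genes. The 20 columns of each sex are separate fish. 37 fish were run on 1 flow cell and 3 (fish i28, i65 and i98) on another. 6 fish had a mean Spearman rho under 0.88 with the other fish, a limit set after the values were seen: females i7 and i53 and males i28, i81, i99 and i128. Of these, fish i128 carried a summed skin and muscle marker level of 14274 CPM against a median of 34.6 CPM over the 40 fish, and fish i99 and i53 carried summed red blood cell markers of 71717 and 39687 CPM against a median of 1803 CPM. Neuron markers were present in every fish, with summed levels of 8534 to 12877 CPM in females and 9030 to 12837 CPM in males. Several results that rest on the 6 fish are given with and without them, and the others with all 40 fish.

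The genes fell into a set of 3 that every brain expressed and a set of 7 that were near absent in some brains. b2m, cd74a and cd74b had no fish under 10 estimated counts, and their lowest counts in any fish were 146, 206 and 46. Each of the other 7 had at least 2 fish listed at 0. The map of estimated counts shows both sets side by side.

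**Figure D1:**
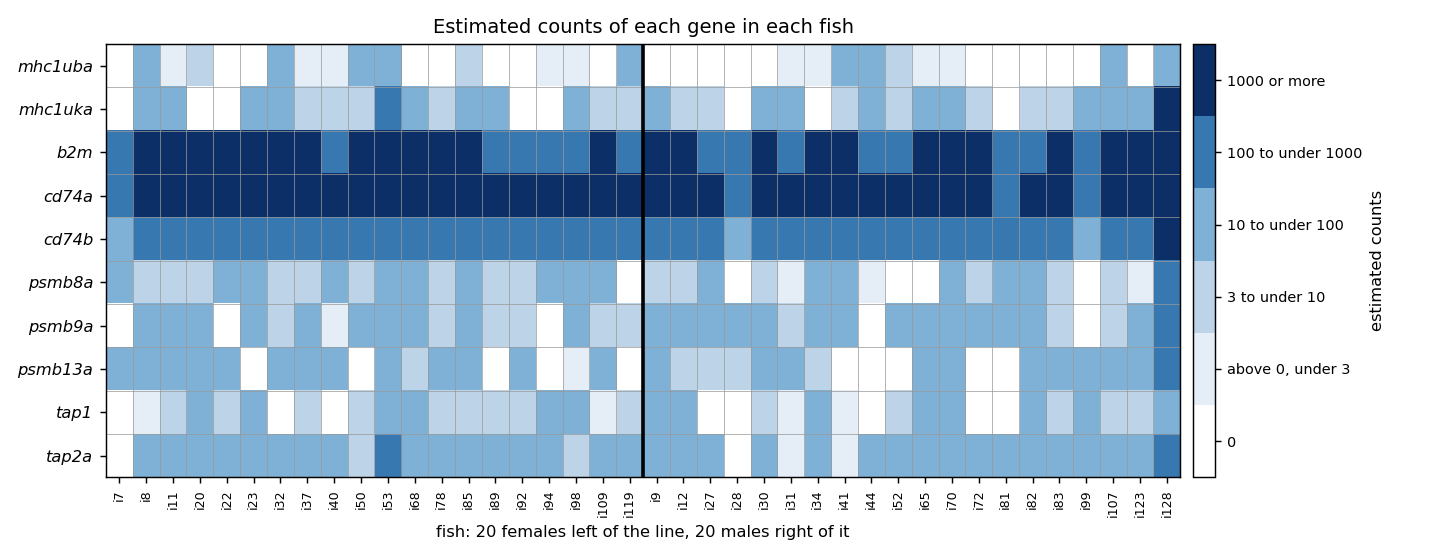
Estimated counts of the 10 genes (rows) in the 40 fish (columns, 20 females left of the line and 20 males right of it), in 6 classes from 0 (white) to the highest counts (darkest). b2m, cd74a and cd74b were counted in every fish, the other 7 rows hold white cells in some fish, and the column of fish i128 is dark in nearly every row.

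b2m (ENSDARG00000053136), a light chain of class I molecules, ranged from 15.2 to 186 CPM in females (median 84.3) and from 46.8 to 754 CPM in males (median 86.7). The ranges overlapped except for 1 female below and 1 male above all others: fish i7 was lowest, and fish i128 stood 4.04 times above the next fish, female i53. Without fish i128 the male range ended at 118 CPM. As log2(CPM + 1), b2m averaged 6.39 ± 0.70 in females and 6.52 ± 0.82 in males (SD, n = 20 each). A further beta-2 microglobulin gene that is not among the 10, b2ml, was also counted in every fish (136 to 587 CPM, median 347).

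cd74a (ENSDARG00000009087), the invariant chain that escorts class II molecules to the endosome, had a lowest, median and highest level of 27.7, 140.5 and 232 CPM in females and of 27.02, 157 and 445 CPM in males. Its paralog cd74b (ENSDARG00000036628) had 4.78, 30.2 and 53.1 CPM in females and 6.30, 33.1 and 264 CPM in males. Both genes were lowest in the same fish, female i7 and male i99, and highest in fish i128. In bulk tissue, fewer cells of a type and less RNA per cell cannot be told apart. Of the 7 genes that passed the filter of the edgeR fit, cd74a had the smallest spread between fish, with a biological coefficient of variation of 0.470 against a median of 0.489 over all genes tested.

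mhc1uba (ENSDARG00000075963), a class I heavy chain, was the sparsest of the 10 genes. It had 0 counts in 8 of 20 females and 11 of 20 males, and 10 or more counts in 5 females and 4 males. Its lowest, median and highest levels were 0, 0.0825 and 1.52 CPM in females, against 0, 0 and 3.10 CPM in males. mhc1uka (ENSDARG00000092731) was listed at 0 in 5 females and 3 males and had 0, 0.646 and 12.6 CPM (lowest, median, highest) in females and 0, 0.731 and 109.6 CPM in males. Here 2 fish stood far above the rest, female i53 with 255 counts and male i128 with 1378 counts, whereas the other 38 fish had 40 counts or fewer. The zeros of the 2 heavy chains overlapped in part: both were at 0 in 5 fish, mhc1uba alone in 14 and mhc1uka alone in 3.

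Of the proteasome genes, psmb8a (ENSDARG00000001303) and psmb9a (ENSDARG00000000656) encode the inducible subunits that replace catalytic subunits of the standard proteasome, and psmb13a (ENSDARG00000001656) is a further MHC-linked subunit gene of fishes. psmb8a had 0, 0.539 and 4.05 CPM (lowest, median, highest) in females and 0, 0.429 and 44.9 CPM in males, and was at 0 in female i119 and in males i28, i52, i65 and i99. psmb9a had 0, 0.843 and 2.65 CPM in females and 0, 1.13 and 27.6 CPM in males, and was at 0 in females i7, i22 and i94 and in males i44 and i99. psmb13a had 0, 1.05 and 4.22 CPM in females and 0, 0.946 and 30.3 CPM in males, and was at 0 in 5 females (fish i23, i50, i89, i94 and i119) and 5 males (fish i41, i44, i52, i72 and i81). The sexes overlapped over most of the range of each gene, with fish i128 far above every other fish. For psmb9a, males i82 (2.91 CPM) and i81 (2.69 CPM) also lay above the highest female. For psmb8a, female i7 (4.05 CPM) lay above every male except i128. The zeros of the subunits overlapped in part. Of the 10 fish at 0 for psmb13a, 2 were also at 0 for psmb8a and 2 for psmb9a, each of which had 5 fish at 0. Fish i99 had 32 counts of psmb13a with none of psmb8a or psmb9a. How many fish at 0 other gene pairs share was not computed, so this overlap, like that of the heavy chains, has no background here.

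The transporter genes encode the paired subunits of TAP. tap1 (ENSDARG00000079766) had 0, 0.520 and 3.39 CPM (lowest, median, highest) in females and 0, 0.496 and 4.61 CPM in males and was at 0 in 3 females and 5 males. tap2a (ENSDARG00000036787) had 0, 1.82 and 6.26 CPM in females and 0, 2.12 and 22.7 CPM in males and was at 0 only in female i7 and male i28. Both of those fish were also at 0 for tap1. tap2a was thus the most regularly counted of the 7 sparse genes, with 6 of 40 fish under 10 counts against 15 to 31 fish for the others. A further transporter gene that is not among the 10, tap2t, was counted in every fish (lowest 5.48 CPM). Its highest levels were 16.3 CPM in fish i7 and 15.5 CPM in fish i28, against a median of 11.1 CPM.

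**Figure D2:**
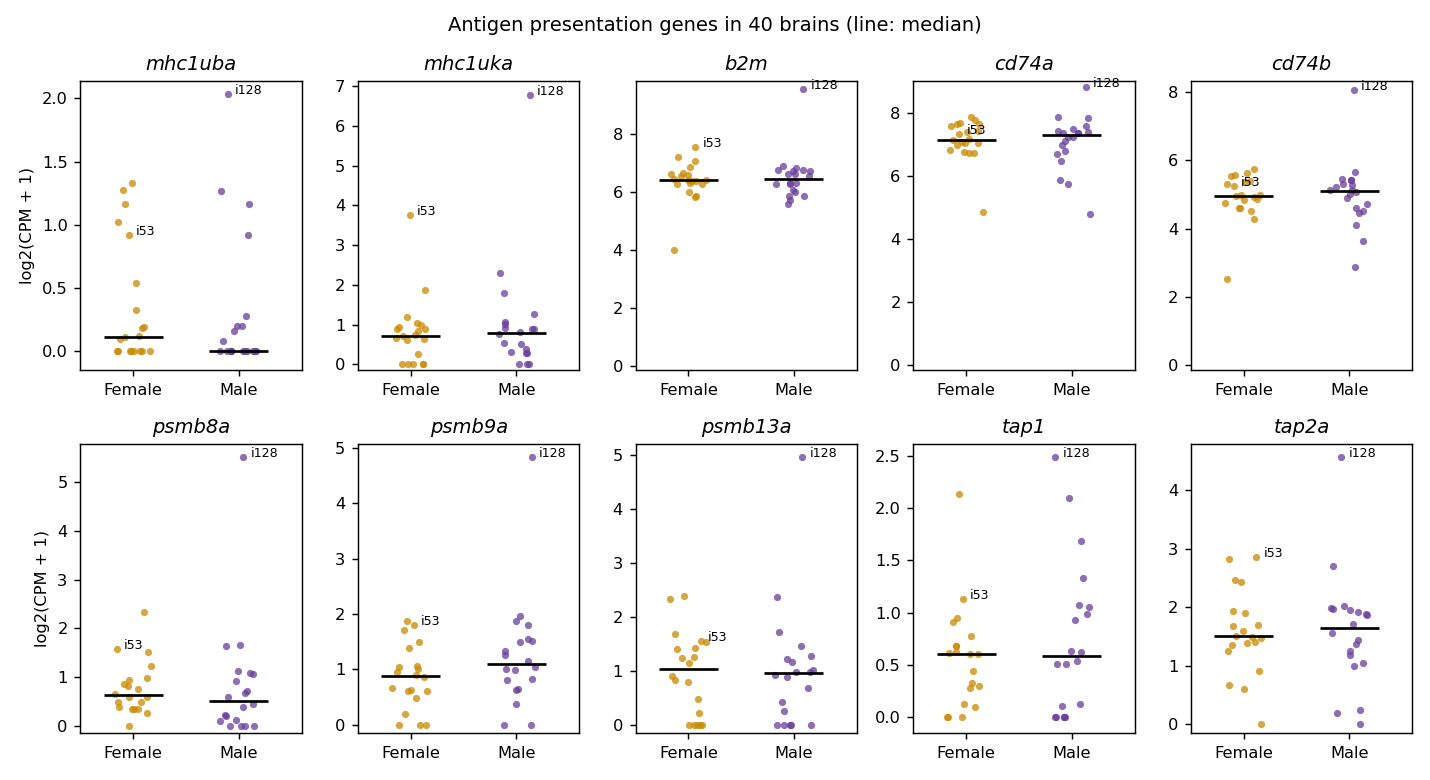
Level of each gene, as log2(CPM + 1) after TMM scaling, in 20 females (left) and 20 males (right); each point is a brain, the line is the median of the sex, fish i53 and i128 are numbered and each panel has its own scale. Fish i128 is the highest point in all 10 panels, and the female and male medians lie close together.

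Near absence was spread over both sexes. Under 10 counts, psmb8a had 10 females and 13 males, psmb9a 10 females and 5 males, psmb13a 7 females and 9 males, mhc1uka 11 females and 10 males, mhc1uba 15 females and 16 males, tap1 14 females and 12 males, and tap2a 3 females and 3 males. Two-sided Fisher's exact tests of these numbers gave unadjusted p between 0.191 for psmb9a and 1, over 7 genes. Under 3 counts, psmb8a had 1 female and 7 males (Fisher's exact test, unadjusted p = 0.0436, adjusted p = 0.305 over 7 genes), whereas the exact p of psmb8a under 10 counts was 0.523. Per fish, 10 brains had none of the 10 genes at 0, 16 had 1, 6 had 2, 5 had 3, 1 had 4 and 2 had 5. The last 2 were fish i7 and i28, in which 15540 and 16958 genes were detected. Fish i7 was not low for every gene: it had 39 counts each of psmb8a and psmb13a, and its psmb8a level was the highest after fish i128.

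A count of 0 at these levels is weak information on the presence of a gene. Of all 16875 genes tested, 5926 (35.1%) had at least 1 fish at 0, and the share depended on the level: it was 99.1% of the 1501 genes with a median under 1 CPM, 93.3% of the 1923 genes from 1 to under 2 CPM and 0.165% of the 1822 genes at 100 CPM or more. mhc1uba, mhc1uka, psmb8a, psmb9a, psmb13a and tap1 had medians over the 40 fish under 1 CPM and tap2a had 1.90 CPM. psmb13a had 10 fish at 0, and 9 or more fish at 0 were found for 23.5% of the genes tested with a median under 1 CPM. A haplotype without the gene, an allele too different from the reference to be counted and low expression cannot be told apart for these 7 genes, since genotypes were not analysed here, and near-identical MHC copies can also share reads in the counting.

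A pair of genes at 0 in different fish was found in the class II genes of the same pathway, chosen for description after its values were seen. mhc2b and mhc2dab, which encode class II chains, had medians of 2.32 and 2.45 CPM, a level at which 17 of 2671 genes tested (0.636%, median from 2 to under 5 CPM) had 9 or more fish at 0. mhc2b was at 0 in 11 fish (6 females, 5 males) and mhc2dab in 9 others (3 females, 6 males), and no fish was at 0 for both. How often other gene pairs with as many fish at 0 share none was not computed, so this lack of overlap has no background here. Where mhc2b was at 0, mhc2dab had 16 to 378 counts (median 78). Where mhc2dab was at 0, mhc2b had 17 to 124 counts (median 48). Under 10 counts were found in 15 fish for mhc2b, in 10 for mhc2dab and in none for both, and 15 fish had both at 10 or more. These numbers depended on the limit, since 20 fish had both genes above 0. mhc2a, a further class II chain gene, was counted in every fish (17 counts or more). Genotypes and reads shared between the copies were not tested for this pair either. Within the 7 sparse genes, pairs shared 0 to 5 fish at 0, and the only pair with none was psmb13a and tap2a, with 10 and 2 fish at 0.

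**Figure D3:**
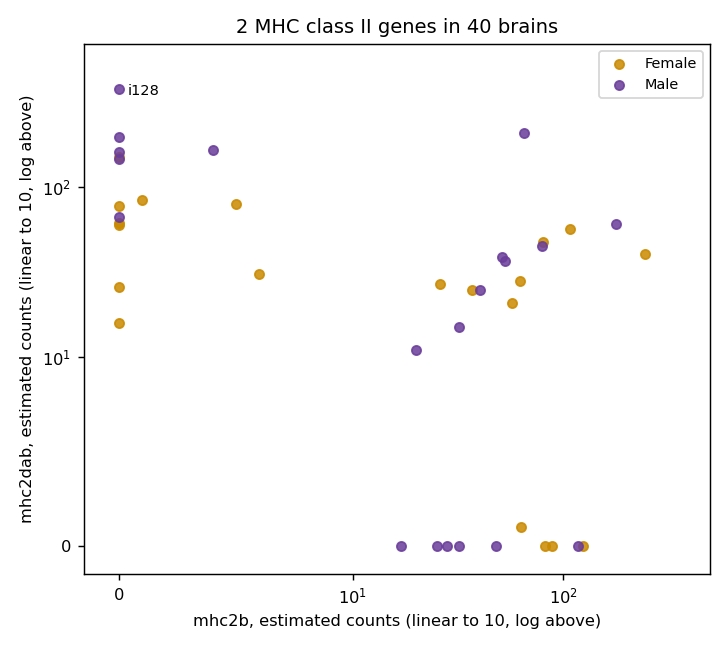
Estimated counts of mhc2b (horizontal) and mhc2dab (vertical) in 20 females and 20 males; both axes are linear up to 10 and logarithmic above. 11 fish lie at 0 on the horizontal axis and 9 on the vertical axis, and no fish lies at 0 on both.

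The largest departure in the 10 genes was 1 male. Fish i128 was the highest of 40 for every one of them, although 6.61% of all genes tested (1116 of 16875) had their highest value in this fish. Its level was 166 times the median of the other 39 fish for mhc1uka, 89.8 times for psmb8a, 33.3 times for psmb13a, 28.1 times for psmb9a, 12.2 times for tap2a, 8.98 times for b2m, 8.91 times for tap1, 8.53 times for cd74b and 3.01 times for cd74a. For mhc1uba, whose median in the other fish was 1 count, it had 39 counts, against 23 in the next fish. The distance to the next fish was 11.1 times for psmb8a, 9.48 times for psmb9a and 8.72 times for mhc1uka, but 1.36 times for tap1. The 1378 counts of mhc1uka in this brain made up 72.8% of the summed CPM of that gene over all 40 fish.

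**Figure D4:**
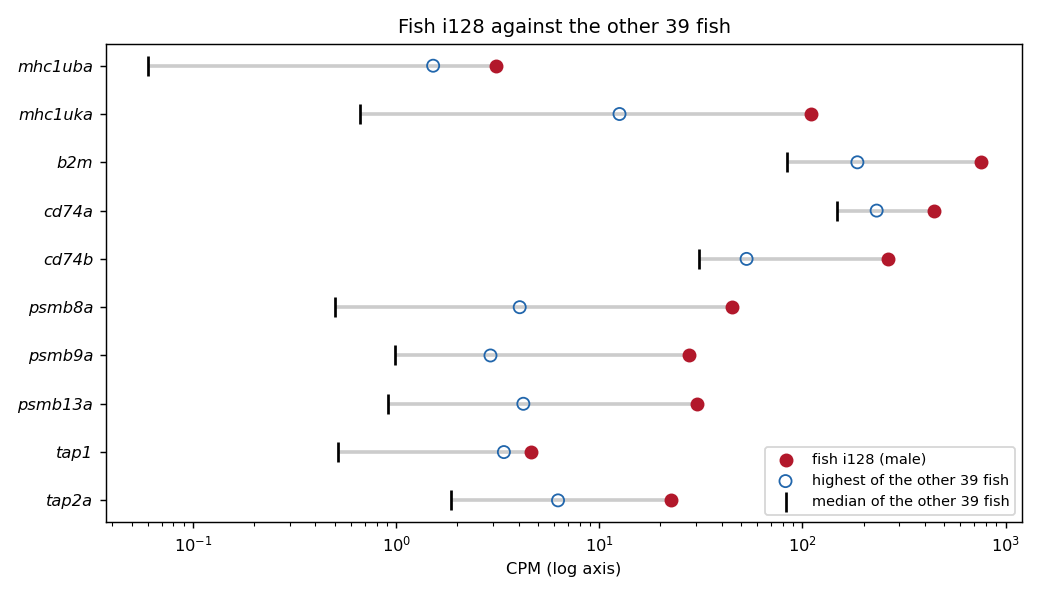
Level of each gene in fish i128 (filled), in the highest of the other 39 fish (open) and at the median of the other 39 fish (tick), in CPM on a log axis. Fish i128 lies to the right of every other fish in each row, by 1.36 times for tap1 and 11.1 times for psmb8a.

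The pathway lists around these genes held more of the same fish. Of the tested genes of each list, fish i128 was highest for 4 of 5 immunoproteasome genes, 8 of 13 class II pathway genes, 5 of 12 interferon-stimulated genes, 6 of 16 regulators, 5 of 13 transport and loading genes and 2 of 5 class I heavy chains, but for 0 of 13 subunits of the standard proteasome. These counts include the members of each list, all of which were highest in this fish. psmb12, a further MHC-linked proteasome subunit, reached 28.7 CPM in fish i128 (61.7 times the median of the others). stat1b, a transducer of interferon signals, reached 54.2 CPM (35.3 times), irf1b, an interferon regulatory factor, 64.0 CPM (13.3 times), mxa, an interferon-stimulated antiviral gene, 23.3 CPM (41.6 times), psme1, an activator subunit of the proteasome, 48.6 CPM (10.3 times), and ciita, the class II transactivator, 12.6 CPM (4.39 times). mhc2dab reached 30.1 CPM (12.8 times), while mhc2b was at 0 in this fish. b2ml was also highest in fish i128, but at 587 CPM it stood only 1.70 times above the median of the others. Among these named genes, psmb12 and mxa reached 100 counts in fish i128 alone and so were chosen through it. Not every gene of the lists was raised: the level was 1.45 times the median of the others for psmb10, 1.13 for stat1a and 1.01 for tap2t. It was 0.98 times for trim25, 0.66 for irf8, 0.66 for rfx5, 0.65 for mhc1zda and 0.30 for ifit16.

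Other tissue moved with these genes in the same brain. Of the summed skin and muscle level of 14274 CPM, the keratin krt5 had 7540 CPM. Of that list, 4 of the 8 tested genes were highest in fish i128. The summed microglia and macrophage level was also highest there (597 CPM against a median of 347 CPM), but only 1 of the 13 tested genes of that list was, and their median log2 difference of fish i128 from the median of the others was -0.23. The next 4 fish by skin and muscle markers (male i82 and females i8, i22 and i85, with 593 to 1082 CPM) had b2m at 65.9 to 135 CPM, psmb8a at 0.267 to 2.12 CPM and mhc1uka at 0 to 1.07 CPM, on both sides of the medians over 40 fish of 84.3, 0.502 and 0.684 CPM. All 4 lay above the median for cd74a (164 to 199 CPM against 149 CPM) and psmb13a (1.64 to 2.28 CPM against 0.946 CPM), and for the other 5 genes their range held the median. The part of skin in the levels of fish i128 was not tested.

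Fish i53, a female, was second for mhc1uka (12.6 CPM, 18.4 times the median of the 40 fish), b2m (186 CPM, 2.21 times) and tap2a (6.26 CPM, 3.29 times). It ranked 19 for cd74a, 15 for cd74b and 5 to 9 for the other genes. High ranks were common in this library: 9.10% of all genes tested (1535 of 16875) had their highest value in it, and 22753 genes were detected. High levels of these class I genes stood beside middling levels of the invariant chains in this brain, and the summed red blood cell markers were 39687 CPM. Fish i99, with 71717 CPM of red blood cell markers, shared this pattern in part. It had the third highest mhc1uka (3.94 CPM), psmb13a (4.20 CPM) and tap1 (3.28 CPM), beside the lowest cd74a. Its b2m (79.1 CPM) and tap2a (1.71 CPM) lay under the medians over the 40 fish (84.3 and 1.90 CPM), and psmb8a and psmb9a had 0 counts. The part of blood in these levels was not tested.

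Females and males were then compared gene by gene with edgeR's quasi-likelihood test over all genes. No gene passed an adjusted p of 0.05 (0 of 16875, 0%), 376 (2.23%) had an unadjusted p under 0.05, and DESeq2 also called 0 of 27840 genes (0%, 621 under 0.05 unadjusted). 7 of the 10 antigen presentation genes passed the filter on low counts, which mhc1uba, psmb8a and tap1 did not pass, and 0 of the 7 were called. mhc1uka had a log2 fold change (female over male) of -2.31 (SE 0.871, unadjusted p = 0.0114) and psmb9a of -1.40 (SE 0.580, unadjusted p = 0.0200), each with an adjusted p of 1.00 by edgeR. Both values rested on fish i128: without it, mhc1uka had 0.62 (SE 0.645) and psmb9a -0.36 (SE 0.478), and without all 6 libraries that stood apart, mhc1uka had -0.0942 (SE 0.518) and psmb9a -0.39 (SE 0.454). The other 5 had log2 fold changes of -0.38 (SE 0.268) for b2m, -0.05 (SE 0.215) for cd74a, -0.39 (SE 0.286) for cd74b, -0.98 (SE 0.732) for psmb13a and -0.37 (SE 0.460) for tap2a, of which each turned positive without fish i128. In a fit without the filter, mhc1uba had 0.02 (SE 0.855), psmb8a -1.73 (SE 0.731) and tap1 -0.63 (SE 0.646), and none of them was called.

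The precision of this comparison differed between the 2 sets of genes. The biological coefficient of variation was 1.80 for mhc1uka, 1.59 for psmb13a, 1.17 for psmb9a and 0.939 for tap2a, against 0.613 for cd74b, 0.577 for b2m and the median of 0.489 over all genes tested. Without fish i128 it was 1.33 for mhc1uka, 0.365 for b2m and 0.430 for cd74b. The standard error of the difference in b2m was then 0.166 on the log2 scale, against 0.268 with all 40 fish.

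In the wider pathway, described by 7 lists of genes, 70 further genes were tested, and none was called between the sexes by edgeR. By list, the median log2 fold change (female over male) was -0.27 for 5 class I heavy chains, -0.61 for 5 immunoproteasome genes, -0.03 for 13 standard proteasome subunits, 0.0016 for 13 transport and loading genes, -0.05 for 13 class II pathway genes, -0.12 for 16 regulators and -0.30 for 12 interferon-stimulated genes, beside -0.0032 over all genes tested. These list values include the 7 tested members, and the class II median is the value of cd74a itself. Beyond mhc1uka and psmb9a, 2 tested genes of these lists had an unadjusted p under 0.05: usp18, a protease that removes the ubiquitin-like protein ISG15 (-1.05, SE 0.355, unadjusted p = 0.00512), and mxb, of the Mx family (-1.57, SE 0.723, unadjusted p = 0.0361). Their highest values lay in males that stood apart: usp18 in i99 (9.71 CPM) and i128 (6.44 CPM), mxb in i81 (18.9 CPM) and i28 (14.9 CPM). These values and the list medians were not computed without the libraries that stood apart. Of the 70 further genes tested, 17 (24.3%) had a fish under 10 counts and another at 100 or more, beside 26.3% of all genes tested. Of all 93 further genes listed, 22 had this range. In 7 of the 22 (mhc1zfa, psmb12, ctss2.2, mxa, mxe, dhx58 and xaf1) fish i128 alone reached 100 counts, so that they were chosen through this fish. The other 15 had the range within the other 39 fish too, and 7 of them (psme1, erap1b, mhc2dab, ciita, irf1b, stat1b and isg15) were highest in fish i128. The remaining 8 were highest elsewhere: the cathepsin genes ctss1 in female i7 (44.6 CPM against a median of 3.72 CPM) and ctss2.1 in female i40 (53.6 CPM against 0.765 CPM), mhc2b in female i85, rsad2 in female i53, calr3b in male i65, erap2 in male i44, irf2 in male i99 and mxb in male i81.

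The 3 genes counted in every fish varied together from brain to brain. As log2(CPM + 1) over 40 fish, cd74a and cd74b gave Pearson's r = 0.92 and Spearman's rho = 0.93 (permutation test, p = 1e-05 for each, the smallest that 100000 resamples can give; adjusted p = 2.00e-05 and 3.00e-05 over 3 pairs). b2m and cd74a gave r = 0.70 and rho = 0.60 (permutation test, adjusted p = 2.00e-05 and 0.000135), and b2m and cd74b r = 0.77 and rho = 0.55 (permutation test, adjusted p = 2.00e-05 and 0.000240). Without the 2 fish farthest from the median on the first gene, r was 0.88, 0.48 and 0.40 for these pairs in that order. Within females r was 0.96, 0.80 and 0.77 and within males 0.91, 0.64 and 0.78. Without the 6 libraries that stood apart it was 0.91, 0.45 and 0.37.

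The summed level of 18 microglia and macrophage markers moved with all 3 genes. It gave r = 0.77 and rho = 0.79 with b2m, r = 0.85 and rho = 0.79 with cd74a, and r = 0.76 and rho = 0.70 with cd74b (permutation test over 40 fish, adjusted p = 2.00e-05 for each r and 3.00e-05, 3.00e-05 and 4.00e-05 for rho, over 6 relations). Without fish i7 and i28, the farthest on the marker axis, r was 0.67, 0.78 and 0.65. Within females rho was 0.79, 0.79 and 0.61, and within males 0.78, 0.85 and 0.78. The 3 fish of the smaller flow cell were too few for a value of their own, and the larger flow cell gave rho of 0.78, 0.77 and 0.67. Of the summed marker level, aif1l made up 47.2% and apoeb 40.3%, and p2ry12 had a median of 0. The sum therefore followed mainly aif1l and apoeb, and by itself it says little of the amount of microglia in a brain. The levels of fish i7, i28, i81 and i99, with the lowest marker sums (126, 190, 194 and 209 CPM), were also the lowest 4 of cd74a. These 4 are among the 6 libraries that stood apart, with 15540 to 16958 genes detected, and some other summed markers were low in them as well: radial glia markers had 1270, 1910, 2733 and 1766 CPM against a median of 4941 CPM over the 40 fish, and endothelium and mural cell markers 36.0, 42.8, 79.1 and 98.04 CPM against 113 CPM. Not all were low: neuron markers had 10912, 11266, 9907 and 9030 CPM against a median of 11073 CPM. Oligodendrocyte markers (6350, 10011, 6358 and 23472 CPM, median 9913 CPM) and red blood cell markers (6821, 6002, 666 and 71717 CPM, median 1803 CPM) lay on both sides of their medians. Without the 6 libraries, rho with the microglia markers was 0.70 for b2m, 0.71 for cd74a and 0.57 for cd74b (permutation test over 34 fish, adjusted p = 6.00e-05, 6.00e-05 and 0.000880).

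**Figure D5:**
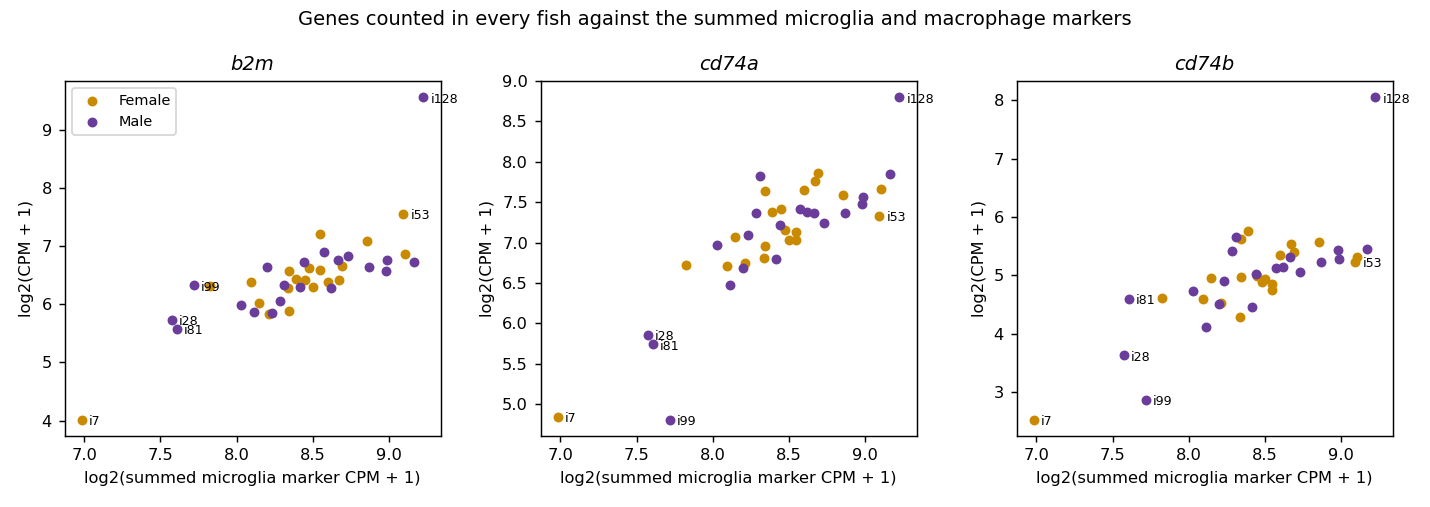
Level of b2m, cd74a and cd74b (vertical, log2(CPM + 1)) against the summed CPM of 18 microglia and macrophage markers (horizontal, log2(CPM + 1)) in 20 females and 20 males. Fish i7, i28, i81 and i99 lie low on both axes, and fish i128 lies high on both, with Spearman's rho of 0.79, 0.79 and 0.70 over the 40 fish.

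Summed T and NK-like cell markers had a weaker relation, with rho = 0.45 for b2m (permutation test, adjusted p = 0.00657), 0.30 for cd74a (adjusted p = 0.0686) and 0.29 for cd74b (adjusted p = 0.0720). Pearson's r was 0.41, 0.48 and 0.37 (permutation test, adjusted p = 0.0109, 0.00304 and 0.0194). Without the 2 farthest fish r was 0.22, 0.32 and 0.17 and rho 0.36, 0.19 and 0.17. Without fish i128 r was 0.67, 0.57 and 0.56 and rho 0.52, 0.37 and 0.35. These markers say little of T cells here, because gata3 and tox made up 50.6% and 44.8% of the sum and cd8a, lck and cd4-1 had a median of 0.

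For the sparse genes with at least 1 fish under 10 counts and 1 at 100 or more, the genes closest in level over the 40 fish differed. Among them, slc9a1b (Spearman's rho = 0.63 with mhc1uka) and txnipa (0.63 with psmb13a) lay on the member's chromosome in the reference annotation. Most others lay elsewhere or were not listed there. The share of all genes tested that lie on that chromosome was not computed, so these matches have no background here. Spearman's rho reached 0.66 for mhc1uka with rcl1, 0.60 for psmb8a with dctpp1, 0.62 for psmb9a with svilc, 0.65 for psmb13a with ifi45 and 0.65 for tap2a with ccdc88c, as a description over genes that share their libraries. Of these members, psmb8a, psmb9a and psmb13a reached 100 counts in fish i128 alone and so were chosen through it. Without fish i128, rho was 0.66, 0.58, 0.59, 0.62 and 0.64 for the 5 members in the order above. Among the genes that passed the filter, the 5 closest to each of these 5 held none of the 10. Because mhc1uba, psmb8a and tap1 did not pass it, they could not be among the closest.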

How the data were processed

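Brain RNA of 40 zebrafish was analysed. According to the study's methods the authors processed paired-end poly-A reads with nf-core/rnaseq 3.11.1 on Ensembl GRCz11 release 109, and they deposited estimated counts per gene (salmon, merged over fish), which need not be whole. They also deposited 5 copies of a comparison table with base means, fold changes and p-values of their own. Of these values only the base mean, recorded as a score and given here as the authors' mean, was used, together with the gene symbols. The fold changes and p-values were not used. Sex was taken from the deposited female and male tables, whose 20 columns each match the number of fish labelled Female and Male. For the 19113 genes whose base mean was at least 5, the 40 columns gave the authors' base mean (median ratio 1.00, 96.8% within 1%), but 5 of the 10 genes averaged more than the authors' mean: mhc1uka (51.4 normalised counts against 9.98), psmb8a (24.9 against 9.84), psmb13a (24.8 against 14.8), psmb9a (23.9 against 14.9) and b2m (1410 against 1184). In the DESeq2 run made here, counts of fish i128 were replaced as outliers for b2m, cd74b, mhc1uka, psmb8a, psmb9a, psmb13a and tap2a, and for mhc1uka those of fish i53 too.

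Counts were rounded, filtered with filterByExpr, scaled by TMM and tested with edgeR 4.0.16 (quasi-likelihood, Benjamini-Hochberg over all genes tested, threshold 0.05), with DESeq2 1.42.0, RLE scaling and no filter as alternatives (R 4.3.3). Depth per fish was between 9392146 and 19131418 estimated counts, and 3 counts set the floor. Near absence meant under 10 counts. Correlations used log2(CPM + 1) with 100000 permutations (Python 3.11.15, scipy 1.17.1). The edgeR and DESeq2 fits were tested on simulated counts without an outlying fish. That test does not cover genes whose values rest on fish i128. Named are all 10 genes, the genes of the pathway lists with a fish under 10 counts and another at 100 or more, and the genes closest to the sparse members by Spearman's rho. Some other genes of the lists, such as tap2t and b2ml, are named for comparison. The members and lists were chosen with earlier results of these data known. Left out was diet, which the column names do not show. No sequence was printed, since none was in the reference tables used here.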

Additional observations from a re-analysis of the deposited data

How the results depend on the processing

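Of the 7 genes in the edgeR fit, the fold change between the sexes kept one sign under every alternative only for psmb9a. mhc1uba, psmb8a and tap1 did not pass the filter and had values only without it, by DESeq2 and as the difference of mean log2(CPM + 1). No change of the 10 genes was called under the alternatives run. Leaving out fish i128, chosen after the values were seen, turned the log2 fold change (female over male) to 0.62 for mhc1uka, 0.11 for b2m, 0.10 for cd74a, 0.0894 for cd74b, 0.38 for psmb13a and 0.23 for tap2a, and leaving out the 6 fish that stood apart gave -0.0942 for mhc1uka, 0.0086 for b2m, -0.0145 for cd74a, -0.0018 for cd74b, -0.39 for psmb9a, 0.35 for psmb13a and 0.23 for tap2a. DESeq2, which replaces outlier counts, gave 0.12 for b2m, 0.0894 for cd74b, 0.53 for psmb8a, 0.37 for psmb13a and 0.24 for tap2a, and the difference of mean log2(CPM + 1) was 0.0614 for cd74a (permutation test, p = 0.805). Over all genes, 13 were called without a filter on low counts (6 higher and 7 lower in females, none of them one of the 10), and 0 with RLE scaling (391 unadjusted), without fish i128 (267), without the 6 fish (258) and on the larger flow cell alone (355). Of the correlations, those of b2m, cd74a and cd74b with each other and with microglia markers stayed past the threshold under each alternative, except b2m with cd74b in females on total counts alone (permutation test, adjusted p = 0.0679). T and NK-like markers changed with the setting: rho with b2m was 0.374 in females, no longer past the threshold, and passed it with cd74a on total counts (0.367) and without fish i128 (0.366) and with cd74b likewise (0.335 and 0.350). The limit for near absence moved the number of fish: 8 fish had under 3 counts of mhc1uka, 8 of psmb8a and 6 of psmb9a, and 38, 39 and 38 fish had under 50 counts. Females and males are separate fish, so no paired analysis was made. The paper housed both sexes together in tanks, run in blocks. Tank and block are not shown by the column names and were not modelled. Medians near 1 CPM limit what the sparse genes can show.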
